A study of Rattus norvegicus with 105 samples.

Results

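Primary rat hepatocytes exposed for 24 h to nitromethane (NM) at 1 or 3 mM were compared with hepatocytes kept in medium. The members are 9 of the 105 libraries of the series, chosen by their labels alone: 3 libraries at 1 mM, 3 at 3 mM and 3 in medium. All cells came from female Sprague-Dawley rats of one commercial lot and were grown on collagen in multi-well plates in Williams' E medium with serum and insulin, transferrin and selenium. The medium libraries had no test compound. Other libraries of the same set were used as references: NM at 5 lower concentrations from 0.003 to 0.3 mM and at 10 mM, nitroethane (NE) at 1 and 3 mM, and DMSO as the vehicle control, each with 3 libraries. Single libraries are named by the replicate number of their label. Plate rows and columns below were read from the endings of the library names and were not checked against another source. The labels do not say whether the NM wells held DMSO. Replicates are labelled biological, but one lot supplied every well, so a p-value here reflects well-to-well scatter and says nothing about other animals.

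Nitromethane is the smallest nitroalkane, a solvent and fuel additive that caused tumours in long-term rodent studies, and the series is titled as a contribution to carcinogenicity assessment. Hepatocytes secrete albumin, apolipoproteins and clotting factors, run the urea cycle and bile acid synthesis, and clear foreign compounds with cytochrome P450 enzymes. Several of these enzymes are under the nuclear receptors CAR, PXR and PPARα, and isolated hepatocytes in flat culture are known to lose much of this specialised transcript pool.

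RNA was read with TempO-Seq, in which pairs of detector oligonucleotides are joined on a target RNA, amplified and counted. Each value below is a count of 1 probe scaled by the total of its library (CPM), and a change is a log2 fold change with its standard error (SE) from edgeR's quasi-likelihood test, with Benjamini-Hochberg adjustment over all probes tested ("edgeR adjusted p"). A change was called at an adjusted p under 0.05. Unless said otherwise, the spread behind each SE and p came from a fit of more libraries than those compared. These were 27 for NM with medium and 12 for NM with NE. Library totals ran from 6633655 to 11122665 in the 9 libraries, so that 3 counts equal 0.27 to 0.452 CPM.

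The libraries were not equally close to each other. Of the probes at 32 CPM or more in the other libraries of the group, 10.9% were over 2-fold off in replicate 1 of 1 mM and 22.5% in replicate 1 of 3 mM, against 1.26% to 3.49% in replicates 2 and 3 of both concentrations and at most 0.129% in medium. In the libraries of the 5 lower NM concentrations, which share the estimate of spread, the share was at most 0.28%. Replicate 1 of 1 mM also had a count at 16558 probes, where the other 8 libraries had 13675 to 14783. The main results are given with and without these libraries. Hepatocyte transcripts were abundant in all 9 libraries, with Alb, which encodes albumin, at 1974 to 3934 CPM and Hnf4a, a defining hepatocyte transcription factor, at 225 to 350 CPM. Of the marker lists for other cells, lymphocyte markers summed to at most 0.36 CPM, erythroid markers to at most 0.461 CPM and endothelial markers to at most 2.39 CPM. The 12 Kupffer cell probes summed to 1.97 to 3.64 CPM in medium, 6.93 to 9.66 CPM at 1 mM and 5.22 to 7.7 CPM at 3 mM. Of these 10 had a median under 1 CPM in each group. Cholangiocyte markers summed to 998 to 1135 CPM in medium, 975 to 1244 CPM at 1 mM and 898 to 1365 CPM at 3 mM. Of their 11 probes 4 had a median under 1 CPM in each group. Stellate cell and fibroblast markers summed to 334 to 382 CPM in medium, 366.5 to 502 CPM at 1 mM and 392 to 712 CPM at 3 mM. Of their 11 probes 9 had a median under 1 CPM in each group. The sum thus came mainly from the remaining probes. The part of these marker levels in the results was not tested. In such bulk wells, fewer cells of a type and less RNA per cell cannot be told apart.

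At 1 mM a single gene passed the test. Pmaip1, which encodes the pro-apoptotic BH3-only protein Noxa, had 166, 156 and 225 CPM in the medium libraries and 104, 89.4 and 114 CPM at 1 mM. The groups did not overlap, and the log2 change was -0.87 ± 0.13 (SE, n = 3 against 3, edgeR adjusted p = 0.0139). This was 1 of 12231 probes tested (0.00818%), while 650 probes had an unadjusted p under 0.05. DESeq2 called 7 probes and limma voom with sample quality weights called 16. The call was lost in edgeR without medium replicate 3 (adjusted p = 0.298), without 1 mM replicate 1 (0.192) and without 1 mM replicate 2 (0.327), with changes of -0.69, -0.85 and -0.79. It was also lost when the medium and 1 mM libraries were fitted alone (-0.87, edgeR adjusted p = 0.738). Without replicate 1 of 1 and 3 mM the edgeR adjusted p was 0.1015 (-0.85), and with both changes 0.237 (-0.85). Against DMSO, where Pmaip1 stood at 72.6, 80.5 and 99 CPM, the 1 mM value had the other sign (0.19, edgeR adjusted p = 0.563).

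The next genes at 1 mM did not pass and are given as values. Afm, which encodes the plasma vitamin E carrier afamin, had a log2 difference of 1.10 ± 0.21 (edgeR adjusted p = 0.165), with 26.3, 29.4 and 15.9 CPM in medium and 58.9, 52.3 and 47.6 CPM at 1 mM. Rarres2, which encodes the adipokine chemerin, was at 724, 712 and 581 CPM in medium and 966, 934 and 964 CPM at 1 mM. Both genes had every 1 mM library above every medium library, as had 8.7% of all probes tested; for 6.78% of the probes every 1 mM library lay below medium. Etfb, a subunit of the electron transfer flavoprotein, Cyp2c22 and the mitochondrial isoleucyl-tRNA synthetase gene Iars2 were next among the higher genes, with log2 differences of 0.63, 0.89 and 0.47. Among the lower ones, Crip1 (-1.04), the stearoyl-CoA desaturase gene Scd2 (-0.89), Mme, which encodes neprilysin (-0.76), the glutamine transporter gene Slc1a5 (-0.61) and Tspan8 (-0.53) came first, with edgeR adjusted p of 0.301 to 0.687. None of the other gene lists had a member called at 1 mM: 0 of 30 hepatocyte probes, 0 of 12 CAR and PXR target probes, 0 of 28 NRF2 target probes and 0 of 27 probes of formaldehyde, aldehyde and one-carbon metabolism. The remaining p53 target probes of the list that holds Pmaip1, 21 of 22, did not pass.

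**Figure D1:**
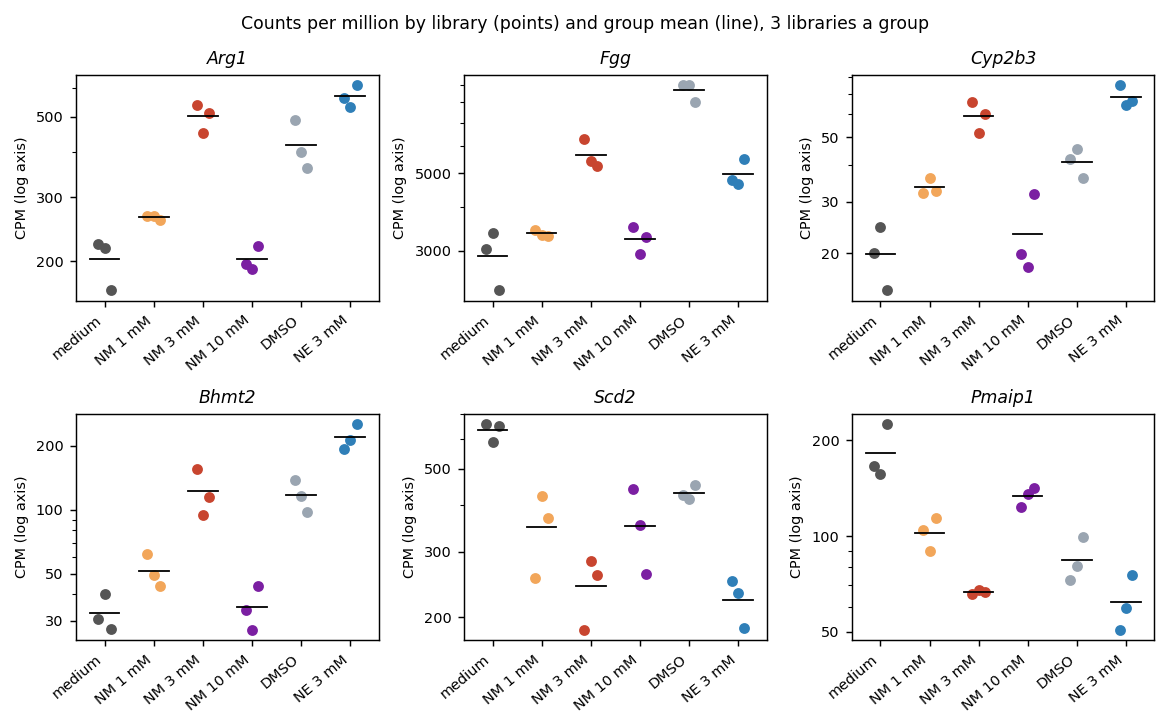
CPM (log axis) of 6 genes in medium, NM at 1, 3 and 10 mM, DMSO and NE at 3 mM; each point is 1 library and each line the mean of 3. Arg1, Fgg, Cyp2b3 and Bhmt2 lie highest among the NM and medium libraries at 3 mM and Scd2 and Pmaip1 lowest on average, while the 10 mM means lie nearer to medium than the 3 mM means do.

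At 3 mM, 284 of 12231 probes (2.32%) passed against medium, 239 higher (1.95%) and 45 lower (0.368%), with a median log2 change of 0.02 over all probes tested. Genes of the specialised hepatocyte and cytochrome P450 genes were among the rises, and a cell death gene, lipid synthesis genes and matrix genes among the falls. Without replicate 1 of 1 and 3 mM, 180 of 12335 probes passed (1.46%), 161 higher (1.31%) and 19 lower (0.154%). Leaving out single libraries gave 149 (medium replicate 1), 184 (medium replicate 2), 107 (medium replicate 3) and 147 (3 mM replicate 1). Fitted on these 6 libraries alone, edgeR called 0 probes with 952 at an unadjusted p under 0.05. A fit of the 5 libraries without 3 mM replicate 1, chosen after the data had been seen, called 783, of which 241 were among the 284.

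The hepatocyte list held 30 tested probes, of which 13 rose and none fell at 3 mM, with a median log2 change of 0.66. Without both replicate 1 libraries 14 rose and none fell, and without medium replicate 3 the number was 8. Arg1, the cytosolic arginase that ends the urea cycle, had the smallest p of all probes. It had 223, 218 and 166 CPM in medium and 540, 452 and 512 CPM at 3 mM, a log2 change of 1.32 ± 0.12 (SE, n = 3 against 3, edgeR adjusted p = 1.05e-06). Over all probes tested, 9.35% had every 3 mM library above medium and 12.5% had every one below. The groups lay far apart, and the 3 mM libraries differed by less among themselves than from any medium library. Cps1, the entry enzyme of the urea cycle, rose from 7.54, 7.52 and 2.85 CPM to 12.7, 35.9 and 25.9 CPM, a change of 2.09 ± 0.49 (edgeR adjusted p = 0.0239), with replicate 1 the lowest of the 3 mM libraries. Otc, the ornithine transcarbamylase of the same cycle, rose by 0.91 ± 0.24 from a low level (edgeR adjusted p = 0.0438).

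Secreted plasma proteins made up most of the other calls of that list. Alb had 2514, 2548 and 1974 CPM in medium and 3835, 3700 and 3934 CPM at 3 mM, a change of 0.72 ± 0.11 (edgeR adjusted p = 0.000466). Apoa1, the main protein of high-density lipoprotein, rose from 3255, 2819 and 2335 CPM to 5131, 4685 and 5110 CPM. Both genes were tight across the 3 mM wells, replicate 1 included. The fibrinogen chains Fga and Fgg rose by 1.15 and 0.97, Fgg from 3024, 3368 and 2304 CPM to 6284, 5442 and 5245 CPM. Prothrombin (F2, 0.61), plasminogen (Plg, 1.76), transferrin (Tf, 0.58), β2-glycoprotein (Apoh, 0.71) and Fbp1 of gluconeogenesis (0.82) were further calls. Ttr, Hnf4a and Fgb, 3 further members, did not pass: Fgb had 451, 477 and 287 CPM in medium and 186, 759 and 791 CPM at 3 mM, so that replicate 1 alone lay below medium. The liver transcription factor gene Cebpa had a log2 difference of 0.36 ± 0.14 and did not pass either. Beyond the list, the carrier gene Afm rose by 1.87 ± 0.21 and Cpn2, which encodes a subunit of plasma carboxypeptidase N, by 1.94 ± 0.30.

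Since many of these genes are known to be driven by a few liver transcription factors, the 250 bases before their RefSeq start sites (build GRCr8) were searched on both strands for a half-site of HNF1 (GTTAAT), a C/EBP core (TTGCNNAA), an HNF4 site (CAAAGTCCA) and a core of C/EBP-ATF response elements (TGATGNAA); these motifs share no full copy with each other. Promoters were found for 10 of the 13 hepatocyte genes that rose. The HNF1 half-site was present in 4 of the 10 (40%) and in 6.46% of the 27457 promoters of the table. The C/EBP core was present in 3 of the 10 and in 9.2% of all, the HNF4 site in 1 of the 10 and in 0.331% of all, and the TGATGNAA core in 0 of the 10 and in 3.27% of all. A match is a description of the letters and was not tested as a site. The genes come from a list chosen for hepatocyte identity, and its members that did not rise were not searched. The shares therefore cannot be tied to the rise at 3 mM. The 4 promoters with the HNF1 half-site are shown because their genes rose together at 3 mM, each from 250 bases before the start to the base before it, in the direction of the gene, with motif matches in capitals. The HNF1 half-site begins 82 bases before the start in Alb, 52 in Fga, 38 in F2 and 67 in Plg.
Alb, chr14:17906980-17907229, minus strand: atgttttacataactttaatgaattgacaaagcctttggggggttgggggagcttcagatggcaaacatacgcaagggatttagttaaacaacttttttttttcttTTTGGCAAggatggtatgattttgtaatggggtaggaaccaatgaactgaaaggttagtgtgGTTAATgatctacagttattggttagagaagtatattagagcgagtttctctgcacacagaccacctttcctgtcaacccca
Fga, chr2:170671919-170672168, plus strand: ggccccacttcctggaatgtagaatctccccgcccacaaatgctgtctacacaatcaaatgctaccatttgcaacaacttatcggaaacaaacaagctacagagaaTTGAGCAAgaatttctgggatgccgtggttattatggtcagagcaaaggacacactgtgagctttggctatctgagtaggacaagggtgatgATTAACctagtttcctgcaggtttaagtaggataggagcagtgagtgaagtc
F2, chr3:98065247-98065496, minus strand: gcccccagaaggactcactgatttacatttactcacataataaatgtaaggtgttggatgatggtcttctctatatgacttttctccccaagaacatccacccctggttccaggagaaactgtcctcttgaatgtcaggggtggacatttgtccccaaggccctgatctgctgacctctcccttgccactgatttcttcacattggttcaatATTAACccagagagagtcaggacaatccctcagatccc
Plg, chr1:50915407-50915656, minus strand: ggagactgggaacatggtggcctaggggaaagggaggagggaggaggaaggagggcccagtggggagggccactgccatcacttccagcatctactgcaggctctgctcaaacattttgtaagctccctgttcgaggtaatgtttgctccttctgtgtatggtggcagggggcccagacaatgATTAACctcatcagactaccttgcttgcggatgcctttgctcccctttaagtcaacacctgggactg
In Alb and Fga the other capitals mark the C/EBP core. Of the 12 genes with the largest falls named below, 10 had a promoter in the table and 0 held the HNF1 half-site, 2 the C/EBP core and 1 the HNF4 site; of the 12 largest rises 6 had a promoter in the table, and 1 held the HNF1 half-site.

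**Figure D2:**
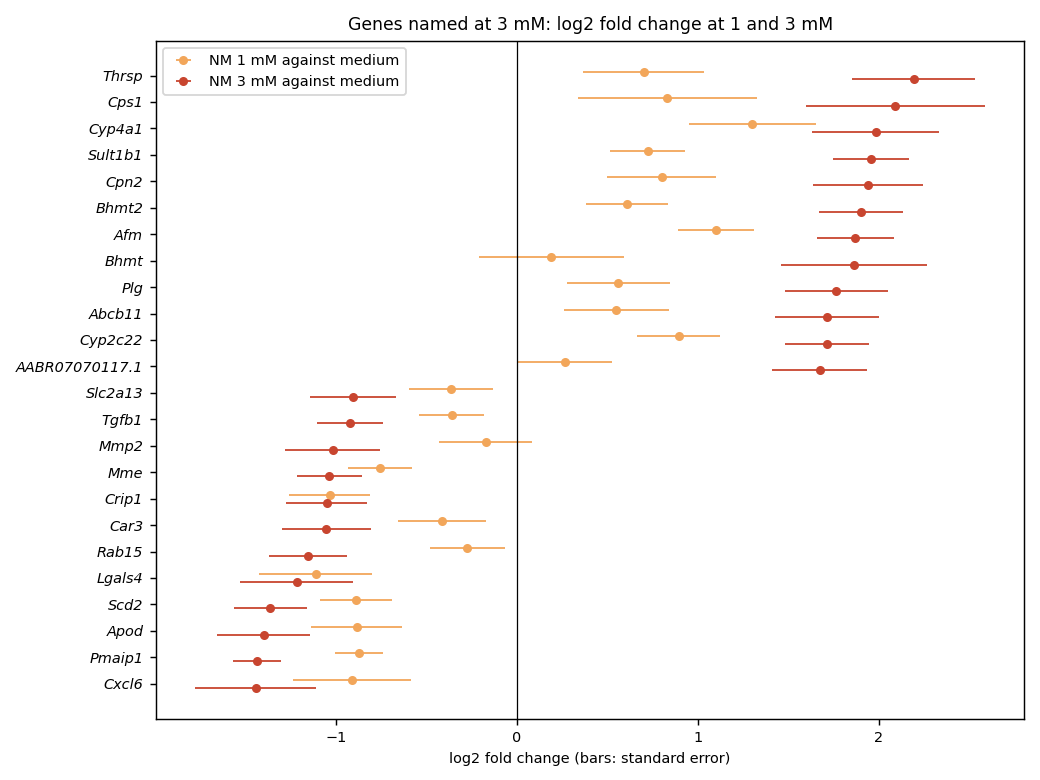
Log2 fold change against medium at 1 mM and 3 mM (bars: SE) for the 12 largest rises and 12 largest falls at 3 mM; the genes were ordered by their 3 mM value. The 3 mM values run from 1.67 to 2.19 for the rises and from -1.45 to -0.91 for the falls; the 1 mM values lie between -1.11 and 1.30. Both sets share the medium libraries.

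Of 12 CAR and PXR target probes 6 rose and none fell, with a median of 0.99, and 6 of 11 rose without both replicate 1 libraries; without medium replicate 3 it was 3. Cyp2b3, a phenobarbital-family cytochrome P450 gene, had 20.1, 24.6 and 14.9 CPM in medium, 32.2, 36.3 and 32.6 CPM at 1 mM and 66, 51.6 and 60.2 CPM at 3 mM. Its change was 0.72 ± 0.19 at 1 mM, which did not pass (edgeR adjusted p = 0.69), and 1.59 ± 0.19 at 3 mM (edgeR adjusted p = 3.27e-05). No library of any of these 3 groups overlapped with another group. Cyp2b2, the classical CAR target, was low in medium (1.39, 2.38 and 2.28 CPM) and reached 19.8, 15.5 and 16.7 CPM at 3 mM, a log2 change of 3.1 ± 0.37. Cyp2b genes are near-identical copies, so the probe could also count reads of its relatives. The xenobiotic receptor PXR itself (Nr1i2, 0.93), its target Cyp2c6v1 (1.49), the P450 reductase Por (0.50) and the epoxide hydrolase Ephx1 (0.54) were the other calls, and Cyp2c22, outside the list, rose by 1.71 ± 0.23.

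Of 11 probes of bile acid synthesis and transport, 3 rose: Abcb11, the bile salt export pump (1.71), Akr1d1, the reductase that shapes the bile acid ring (1.63), and Slco1a1, an organic anion uptake transporter (1.59). Abcb11 went from 5.45, 9.14 and 4.1 CPM to 16.7, 19.6 and 24.1 CPM without overlap. The list as a whole had a median of -0.08, and its other 8 probes did not pass. Without both replicate 1 libraries 2 passed, with Slco1a1 lost (edgeR adjusted p = 0.0666). Sulfotransferase gene Sult1b1 rose by 1.96 ± 0.21 (edgeR adjusted p = 1.15e-05), from 31.7, 36.6 and 23.1 CPM to 117, 114 and 120 CPM.

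Fatty acid genes gave a mixed picture. Of 24 PPARα target probes 3 rose and none fell (median 0.24): the fatty acid hydroxylases Cyp4a1 and Cyp4a2 and the mitochondrial dehydrogenase Acadvl. Without both replicate 1 libraries 5 rose. Cyp4a1 had 9.16, 11.9 and 7.17 CPM in medium, 36.2, 17.1 and 19.4 CPM at 1 mM and 65.1, 24.7 and 23.2 CPM at 3 mM. Replicate 1 was the highest at both concentrations; without it the 3 mM change was 1.39 and not 1.98, still called (edgeR adjusted p = 0.00543). Thrsp, a lipogenic gene of the liver that responds to thyroid hormone, had the largest rise among genes with a mean of at least 10 CPM and no overlap, from 17.2, 14.9 and 6.04 CPM to 64.8, 44 and 64.7 CPM (2.19 ± 0.34). Scd2 fell instead, from 659, 590 and 654 CPM to 185, 284 and 259 CPM (-1.36 ± 0.20, edgeR adjusted p = 0.000337), with 256, 423 and 370 CPM at 1 mM in between. Of 21 cholesterol synthesis probes 4 fell (Insig1 -0.74, Acat2 -0.82, Sqle -0.55 and Cyp51 -0.36) and 1 rose. The list had a median of -0.32. Without both replicate 1 libraries Insig1 alone of these 5 passed.

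Methyl group and aldehyde metabolism was followed because NM carries 1 carbon. Of 27 probes 3 rose at 3 mM and none fell (median 0.11); without both replicate 1 libraries 5 rose. Bhmt, which remethylates homocysteine from betaine, rose by 1.86 ± 0.40 (edgeR adjusted p = 0.0124), with 27, 38.7 and 21.1 CPM in medium and 47.8, 110 and 151 CPM at 3 mM. Bhmt2, outside the list, which remethylates homocysteine from S-methylmethionine, rose by 1.90 ± 0.23, from 30.6, 40 and 27.4 CPM to 156, 94.2 and 116 CPM. Mat1a, which makes S-adenosylmethionine in liver (0.72), and the retinaldehyde dehydrogenase gene Aldh1a1 (0.68) were the other calls of the list. The formaldehyde-clearing genes did not pass: the better expressed Adh5 probe had 238, 228 and 229 CPM in medium and 173, 234 and 210 CPM at 3 mM, and Esd had a log2 difference of -0.38 ± 0.30.

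The largest falls at 3 mM were spread over several functions. Pmaip1 went from 166, 156 and 225 CPM to 65.6, 67.5 and 66.7 CPM, a change of -1.44 ± 0.13 (edgeR adjusted p = 1.82e-06). Cxcl6, a neutrophil-attracting chemokine, fell from 47.5, 44.9 and 50.8 CPM to 7.54, 19.9 and 23.7 CPM (-1.45 ± 0.33), and without both replicate 1 libraries the change was -1.09. Apod, a lipid-binding lipoprotein component, fell by 1.40 on the log2 scale, and the inositol transporter gene Slc2a13 by 0.91. Car3, a carbonic anhydrase, Crip1, Lgals4, Rab15 and Mme fell by between 1.04 and 1.22. Of 26 matrix probes 2 fell, the gelatinase Mmp2 (-1.02) and the growth factor Tgfb1 (-0.92), and of 33 actin and SRF target probes Myl9 (-1.02) and Cnn3 (-0.40) fell. Mmp2, Car3, Lgals4, Slc2a13, Myl9 and Cnn3 did not pass without both replicate 1 libraries, at edgeR adjusted p of 0.143, 0.101, 0.0935, 0.194, 0.077 and 0.189, so that 0 of the 33 actin and SRF target probes was then called.

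Of the stress and growth lists at 3 mM, inflammation and acute phase held 5 calls and each of the others at most 2. Over all probes tested 1.95% were called higher and 0.368% lower. Of 33 probes of the ATF4 and amino acid response, Ddit3, which encodes CHOP (-0.60), and Slc1a5 (-0.87) fell and none rose, with a median of -0.36. Of 22 p53 target probes, Pmaip1 fell and Ccng1 rose from 0, 0.812 and 0.911 CPM to 2.18, 3.15 and 4.97 CPM, levels of few reads, and Ccng1 did not pass without both replicate 1 libraries (edgeR adjusted p = 0.116); Cdkn1a and Mdm2 had log2 differences of -0.61 ± 0.23 and -0.18 ± 0.10 and did not pass. Gsta2 (1.02) and Ephx1 rose among 28 NRF2 target probes, while Nqo1 (-0.02 ± 0.16) and Hmox1 (0.35 ± 0.12) did not pass. Of 28 inflammation and acute phase probes 5 rose, C3, C4bpb, Cxcl10, Fgl1 and Orm1, and none fell (median 0.35). Without both replicate 1 libraries 6 of them rose. C3, the central complement protein, had 988, 1032 and 804 CPM in medium and 2049, 1498 and 1516 CPM at 3 mM. Of 31 hypoxia and glycolysis probes 2 rose, the liver pyruvate kinase gene Pklr (1.84) among them. Egr2 (1.19) rose among 25 ERK and immediate early probes, and the zinc and manganese exporter gene Slc30a10 (1.58) among 5 metallothionein and zinc export probes. Without both replicate 1 libraries Pklr and Egr2 did not pass (edgeR adjusted p = 0.0675 and 0.0897). No probe passed at 3 mM among 7 AhR targets, 15 heat shock, 11 aminoacyl-tRNA synthetase, 25 ribosomal, 21 proteasome, 32 oxidative phosphorylation, 15 interferon response and 23 cell cycle probes; at p under 0.05 without adjustment, edgeR had 2049 probes over the whole table.

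**Figure D3:**
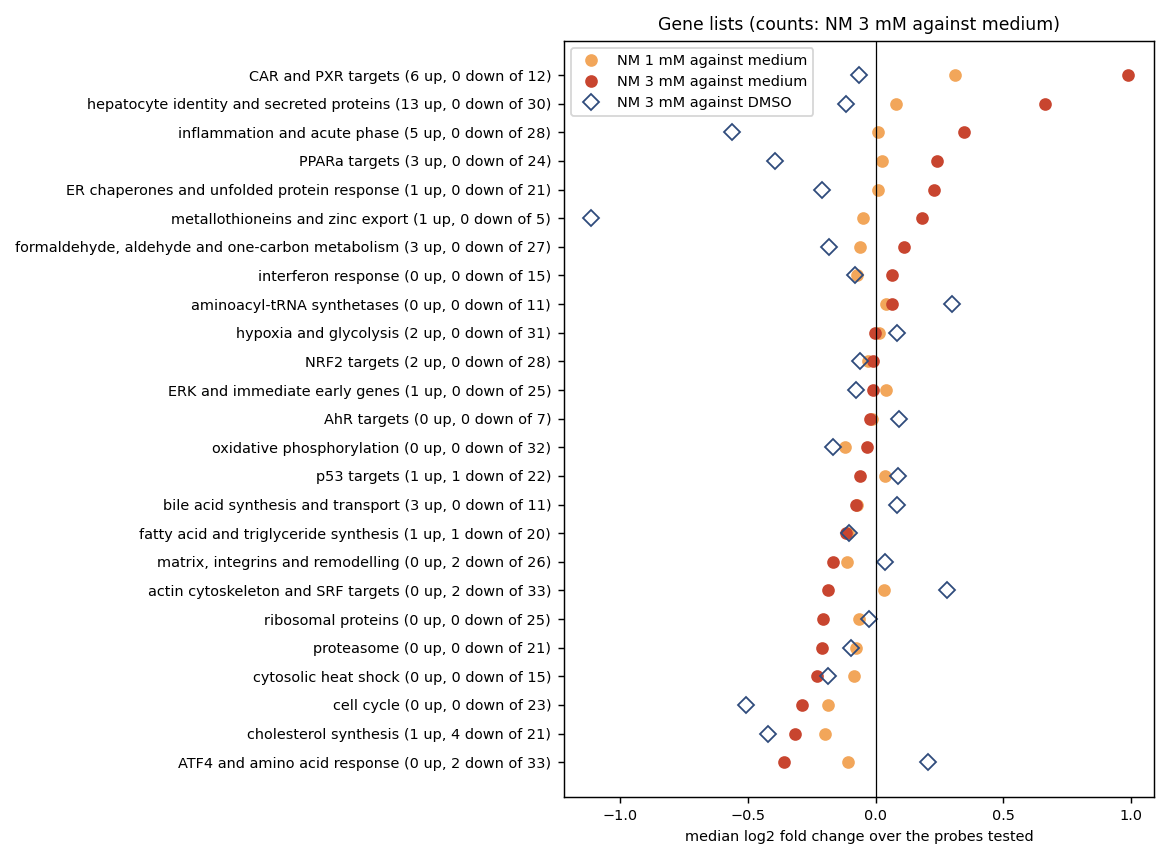
Median log2 fold change over the tested probes of each list for NM 1 mM against medium, NM 3 mM against medium and NM 3 mM against DMSO, with the calls at 3 mM against medium beside each name. The hepatocyte list lies at 0.08, 0.66 and -0.12 in the 3 comparisons and the ATF4 list at -0.11, -0.36 and 0.21.

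Pooling both concentrations, 85 of 12231 probes (0.695%) differed from medium, 73 higher (0.597%) and 12 lower (0.0981%). All NM libraries lay above all medium libraries for 3.3% of the probes and below them for 3.21%. Without medium replicate 1 the count was 35 and without medium replicate 3 it was 16; without both NM replicate 1 libraries it was 83 (0.673% of 12335 probes), 72 higher (0.584%) and 11 lower (0.0892%). Pmaip1 had the smallest p (-1.16 ± 0.11, edgeR adjusted p = 5.4e-06), and all 6 NM libraries lay below all 3 medium libraries. The largest rises of genes whose groups did not overlap were Cyp4a1 (1.64), Afm (1.48), Cpn2 (1.37), Sult1b1 (1.34), Cyp2c22 (1.30), Bhmt2 (1.26), Cyp2b3 (1.15), Cyp4a2 (1.14), Bcas1 (1.14), Akr1d1 (1.09), Itih3 (1.04), which encodes a hyaluronan-binding plasma protein, and Spata2L (1.00). The falls were Cxcl6, Lgals4, Pmaip1, Apod, Scd2, Crip1, Mme, Slc1a5 and Lgals3, from -1.18 to -0.63. Of the hepatocyte list 6 rose, Arg1, Fga, Fgg, Plg and Fbp1 among them, of CAR and PXR targets 3 and of PPARα targets 3. Against DMSO the pooled calls of these lists were all falls: 8 of 30, 2 of 12 and 7 of 24.

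Tested against each other, 3 mM exceeded 1 mM at 27 of 12231 probes (0.221%), and edgeR called no probe lower among 900 with an unadjusted p under 0.05. DESeq2 called 98 higher and 20 lower, limma voom 234 and 109, and edgeR with a replicate block 35 and 3. By edgeR the count was 10 without both replicate 1 libraries (0.0811%), 11 without 1 mM replicate 3 and 16 without 3 mM replicate 3. Arg1 and Apoa1 had the smallest p. Arg1 had 266, 267 and 259 CPM at 1 mM and 540, 452 and 512 CPM at 3 mM (0.98 ± 0.11, edgeR adjusted p = 0.00019), and Apoa1 had 2331, 2758 and 2589 CPM and 5131, 4685 and 5110 CPM (1.01 ± 0.12). No 3 mM library overlapped with a 1 mM library in either gene. The share of all probes without overlap is not given for this comparison. Of the hepatocyte list 8 of 30 probes were called, Alb, Fga, Fgg, Ttr and F2 among them; without both replicate 1 libraries 4 were, Arg1, Apoa1 and Fgg among them, while Alb (edgeR adjusted p = 0.0502), Fga (0.185), Ttr (0.259) and F2 (0.259) were lost. The named rises outside that list were Sult2a2, which belongs to a family of near-identical sulfotransferase genes, the uncharacterised AABR07070117.1, Bhmt2, Sult1b1, the mannose-binding lectin gene Mbl1, Akr1d1, Itih3, the asialoglycoprotein receptor gene Asgr2, the urate oxidase gene Uox and the apolipoprotein gene Apoc1, from 0.90 to 1.48. Of these, Itih3 and Uox alone passed without both replicate 1 libraries (edgeR adjusted p = 0.0409 for both). Pmaip1, Scd2 and Cyp2b3 were not among the 27.

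Lower NM concentrations in the same plate columns gave a second reference, the 15 libraries from 0.003 to 0.3 mM. Against their mean, 846 of 12231 probes (6.92%) differed at 3 mM, 648 higher (5.3%) and 198 lower (1.62%); without 3 mM replicate 1 the count was 191, without 3 mM replicate 2 it was 1420, and without both replicate 1 libraries 223 (1.81%), 193 higher (1.56%) and 30 lower (0.243%). Thrsp (1.91), Cpn2 (1.58), Sult1b1 (1.55), Bhmt2 (1.33), Cxcl10 (1.31) and Afm (1.30) were among the largest rises. Rsad2 (-1.26), Rab15 (-1.10), Mmp2 (-1.06) and the ER stress kinase PERK gene Eif2ak3 (-0.94) were among the falls. Of the hepatocyte list 14 of 30 probes rose. At 1 mM edgeR called 0 of 12231 probes (0%) against the same libraries, with 809 at an unadjusted p under 0.05; DESeq2 called 0 and limma voom 12. Pmaip1 there had a log2 difference of -0.37 ± 0.11 (edgeR adjusted p = 0.676), with means of 114 to 168 CPM at the lower concentrations.

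**Figure D4:**
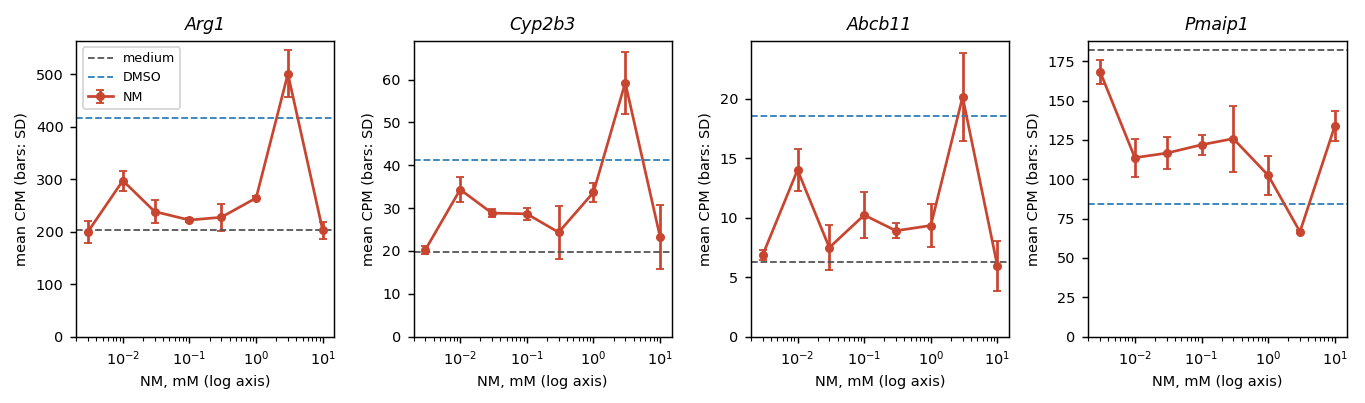
Mean CPM (bars: SD, n = 3) of Arg1, Cyp2b3, Abcb11 and Pmaip1 over the 8 NM concentrations (log axis), with the medium and DMSO means as broken lines. Arg1 stands at 501 CPM at 3 mM and at 202 CPM at 10 mM, the same as the medium mean of 202 CPM, and Pmaip1 at 66.6 CPM and 134 CPM.

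The levels did not keep their 3 mM value at 10 mM. Arg1 had a mean of 264 ± 4.36 CPM at 1 mM, 501 ± 44.9 CPM at 3 mM and 202 ± 16.0 CPM at 10 mM (SD, n = 3 each), with 202 CPM in medium, and its log2 difference between 3 and 10 mM was 1.37 ± 0.12 (edgeR adjusted p = 5.01e-07). Between 3 and 10 mM 287 of 12231 probes (2.35%) differed, 205 higher at 3 mM (1.68%) and 82 lower (0.67%), a comparison that was added after the data had been seen; without 10 mM replicate 2 the count was 178, without 3 mM replicate 3 it was 172, and without both replicate 1 libraries of 1 and 3 mM it was 535. Of the hepatocyte list 13 of 30 probes were higher at 3 mM and none lower, and of PPARα targets 7 of 24, Fabp1, the liver fatty acid binding protein gene, by 2.17. The matrix genes Mmp2 (-1.57) and Tnc (-1.38), the contractile gene Myl9 (-1.42) and the injury marker Havcr1 (-1.27) were lower at 3 mM than at 10 mM. Replicate 3 of 10 mM was itself 22.6% off the others of its group by the measure used above. Its deviations from the group mean correlated at 0.864 with those of 3 mM replicate 1 and at 0.797 with those of 1 mM replicate 1. The comparison of 3 with 10 mM thus holds 1 such library in each group.

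By the library names each concentration lay in its own plate row, so NM concentration and row cannot be told apart. NM lay in plate columns 4 to 6, NE in 7 to 9 and medium and DMSO in 10 to 12. These treatments and their columns cannot be told apart either. Levels in some of the other wells of these rows are given here. Row A held medium and NM 0.003 mM, with Arg1 at 202 and 200 CPM, and row B held DMSO and NM 0.01 mM, at 417 and 298 CPM. Row F held NM and NE at 1 mM, at 264 and 246 CPM. Row F also held the compound labelled WY140 at 50 µM. Rows A and B also held NE at 0.003 and 0.01 mM. Levels of these further groups are not given here. Row G held NM 3 mM, NE 3 mM and CITCO, known as an activator of human CAR, at 20 µM, at 501, 569 and 541 CPM. Row H held NM 10 mM, NE 10 mM and rifampin at 40 µM, at 202, 498 and 239 CPM. Pmaip1 in row G was at 66.6, 61.9 and 65.7 CPM in the same order, and in row H at 134, 62.1 and 106 CPM.

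With DMSO in place of medium, most of the hepatocyte calls were not made. Of the 284 probes called against medium at 3 mM, 23 were also called against DMSO, in either direction. Against DMSO, 83 of 12223 probes (0.679%) differed at 3 mM, 60 higher (0.491%) and 23 lower (0.188%), and of the hepatocyte list 1 of 30 rose and 2 fell (Fga, -0.78, and Fgg, -0.66). Arg1 had 490, 401 and 361 CPM in DMSO, which overlaps the 3 mM libraries, and a log2 difference of 0.22 ± 0.11 (edgeR adjusted p = 0.371). Fgg had 8979, 8991 and 8014 CPM in DMSO, above every 3 mM and every medium library. Of the 12 CAR and PXR probes 0 passed against DMSO at 3 mM. Of 28 inflammation and acute phase probes 4 fell and 0 rose. Scd2 (-0.86), Insig1 (-0.90), Sqle (-0.71) and Tgfb1 (-0.97) fell against DMSO as they did against medium. Pmaip1 was not called against DMSO at 3 mM or pooled, where 0 of the 22 p53 target probes passed. Car3 went the other way, 2.12 ± 0.24 above DMSO at 3 mM (edgeR adjusted p = 0.000115) and 1.05 below medium on the log2 scale. At 1 mM, 251 of 12223 probes (2.05%) differed from DMSO, 118 higher (0.965%) and 133 lower (1.09%), where 1 had differed from medium, and pooled with 3 mM 237 did (1.94%), 134 higher (1.1%) and 103 lower (0.843%). Of the 85 pooled calls against medium 11 were also made against DMSO, and the 1 mM call was not. At 1 mM, 14 of 30 hepatocyte, 13 of 28 inflammation, 10 of 24 PPARα and 2 of 12 CAR and PXR probes fell against DMSO and none of these rose.

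Nitroethane, the next longer nitroalkane, was tested directly against NM at the 2 matched concentrations, with p-values adjusted over the probes of each comparison. At 3 mM, 86 of 11810 probes (0.728%) differed, 48 higher with NM (0.406%) and 38 lower (0.322%). Genes of the endoplasmic reticulum (ER) chaperone system, which folds secreted proteins, were among the lower ones: of 21 probes 7 were lower with NM and none higher, with a median of -1.02 where all probes had 0.03. Hyou1, an ER chaperone of the HSP70 family, had 176, 163 and 178 CPM at 3 mM NM and 470, 535 and 588 CPM at 3 mM NE, with 126, 128 and 122 CPM in medium (NM against NE -1.69 ± 0.15, edgeR adjusted p = 0.00059). Hsp90b1, which encodes GRP94, had 575, 744 and 797 CPM with NM and 2068, 1674 and 1443 CPM with NE. The NM values lay much closer to medium than the NE values did. Creld2 (-1.37), the better expressed Dnajc3 probe (-1.36), Herpud1 (-0.96), Calr (-0.93) and Syvn1 (-0.75) were the other calls, and Ficd, an ER enzyme outside the list, differed by -1.66. Against medium Hyou1 alone of the list passed at 3 mM NM (0.47 ± 0.10, edgeR adjusted p = 0.00854).

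**Figure D5:**
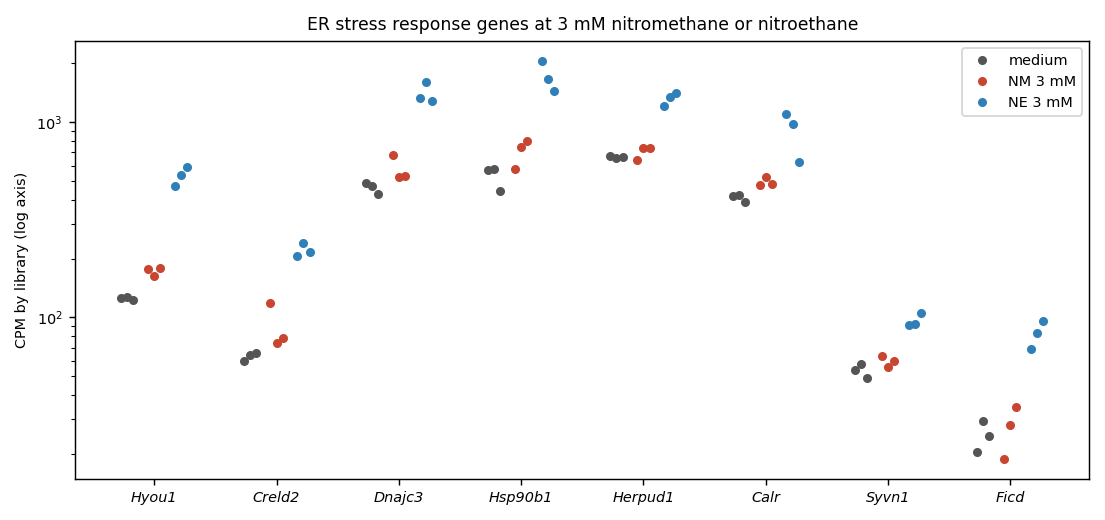
CPM by library (log axis) of 8 ER genes in medium, at 3 mM NM and at 3 mM NE, 3 libraries each. For each gene the NE libraries lie above all NM and medium libraries. The genes were picked among those called between NM and NE, and the share of all probes without overlap is not given for this comparison. Hyou1 runs from 163 to 178 CPM with NM and from 470 to 588 CPM with NE.

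Outside the ER, the largest difference was LOC103694875, an uncharacterised locus, at 2.86, 2.88 and 4.14 CPM with NM and 68.9, 69.4 and 52.6 CPM with NE (-4.32 ± 0.25, edgeR adjusted p = 1.09e-05). The glycerol channel gene Aqp9 (-1.72) and the acyl-CoA thioesterase gene Acot2 (-1.33) were lower with NM. The matrix gene Tnc (2.25), the lysosomal gene Plbd2 (1.65), Calcb (1.46), Flt4 (1.32), Havcr1 (1.22), Car3 (1.21), the tight junction gene Cldn2 (1.20) and Tf (0.77) were higher with NM. Car3 and Tf had also been called against medium. Of 5 other genes called against medium none passed between the compounds, and the 95% intervals of their log2 differences (from the SE) were -0.51 to 0.01 for Arg1, -0.12 to 0.35 for Fgg, -0.62 to 0.06 for Cyp2b3, -0.40 to 0.52 for Scd2 and -0.28 to 0.36 for Pmaip1. For Bhmt2 the interval was -1.31 to -0.54, with an edgeR adjusted p of 0.0595. The count of 86 was 20, 10 and 41 without NE 3 mM replicate 1, 2 and 3, it was 20 without NM 3 mM replicate 2 and 20 without NM 3 mM replicate 3, and it was 201 without both NM replicate 1 libraries.

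At 1 mM edgeR called 0 of 11810 probes (0%) between NM and NE, with 180 at an unadjusted p under 0.05, and DESeq2 called 1 and limma voom 32. NE 1 mM replicate 3 had a count at 16178 probes, against 13754 and 13792 in replicates 1 and 2. Its deviations from the group mean correlated at 0.68 with those of NM 1 mM replicate 1. Without that NE library edgeR still called 0 probes, with 278 at an unadjusted p under 0.05. Ddit3 had the smallest adjusted p, with a log2 difference of -0.75 and a 95% interval of -0.97 to -0.53 (edgeR adjusted p = 0.281). Hyou1 had -0.67 with an interval of -0.96 to -0.39 and did not pass (edgeR adjusted p = 0.9998). These intervals are approximate and not adjusted for the number of probes, so an interval that leaves out 0 is not a call. Arg1 had 0.09 with an interval of -0.17 to 0.35.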

How the data were processed

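The authors deposited 1 table of unnormalized counts (whole numbers, as checked on the file) for 22253 probes in 105 libraries. Per the submitters' processing notes FastQC, Bowtie, R 3.5.3 and DESeq2 1.28.1 were used; their roles are not stated, and the genome build is not given in the sources used here. The labels name a human panel although the symbols are those of rat, and titles give µM where the protocol gives mM (mM was used).

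Counts were fitted with edgeR 4.0.16 in R 4.3.3: filterByExpr (minimum count 10, minimum total count 15), TMM scaling, robust dispersions, quasi-likelihood F test and Benjamini-Hochberg adjustment over all probes tested. The 8 NM concentrations and medium were fitted together (27 libraries) and NM with NE at 1 and 3 mM together (12 libraries). SE is the absolute log2 change over the square root of F. CPM is the count over the library total. The code was tested on simulated data. Alternatives used limma 3.58.1 (voom) and DESeq2 1.42.0.

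Named genes passed the test, had a mean of at least 10 CPM and did not overlap between groups, and the 12 largest changes in each direction were taken; with fewer than 5, the 5 smallest p in each direction were given as not passing. List members that passed, and a few list members that did not, were named too, and the genes shown by library and the searched motifs were picked after values had been seen. The members and lists were chosen with earlier results of these data known. Library pairs of a group differed by more than counting error (chi-square per degree of freedom at least 3.75), so each counts as 1 sample. Deviations of equally numbered libraries from their group means correlated at 0.81, 0.55 and 0.56 between 1 and 3 mM. Replicates 2 and 3 correlated about as much across numbers (0.50 and 0.55), so the values set replicate 1 apart more than they mark pairs. The correlation was 0.05 or less between medium and either concentration. The labels do not say what a number marks, but by the library names it followed the plate column. A few members of the gene lists are counted but not reported here by name.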

Additional observations from a re-analysis of the deposited data

Results flagged for a closer look

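Nitromethane groups of different concentration, which also lay in different plate rows, differed by direct test. In edgeR, 27 probes differed between 3 mM and 1 mM and 287 between 3 mM and 10 mM, Arg1 among both sets, with 264, 501 and 202 CPM at 1, 3 and 10 mM. The compounds also differed at a matched concentration, in the same plate row but in other plate columns. Between nitromethane and nitroethane at 3 mM 86 probes differed, Hyou1 among them, with means of 172 and 531 CPM. Groups of 3 libraries are too small for a test of single outlying values, so none was made.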

How the results depend on the processing

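Counts of called probes are given here by setting where they moved by over 1.5 times, in the order of the report for NM 1 mM and 3 mM against medium, both pooled, 3 against 1 mM, 3 and 1 mM against the lower concentrations, NM against NE at 3 and 1 mM, and 3 against 10 mM. With no filter on low counts, 3 mM against medium gave 183 and against the lower concentrations 529. The DESeq2 Wald test gave 7, 484, 202 and 118 for the first 4, 323 and 1 against NE and 459 against 10 mM. Limma voom with quality weights gave 16, 694, 335, 343, then 12 for 1 mM against the lower concentrations, 910, 32 and 1113. With only the libraries compared, edgeR gave 0 for the first 4 (521, 952, 733 and 323 at an unadjusted p under 0.05), 1450 for 3 mM against the lower concentrations, 2 against NE at 3 mM and 0 against 10 mM (555 unadjusted). Leaving out replicate 1 of 1 and 3 mM gave 0, 180, 10, 223, 201 and 535 for 1 mM and 3 mM against medium, 3 against 1 mM, 3 mM against the lower concentrations, NE and 10 mM. Both changes together, chosen after seeing the data, gave 95, 783, 461 and 646 for the first 4. DMSO in place of medium gave 251, 83 and 237, which held 0, 23 and 11 of the calls made against medium. The cause of these shifts was not tested. DESeq2 size factors moved no count by over 1.5 times.

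Leaving out 1 replicate at a time gave 0 to 1 calls for 1 mM against medium, 107 to 323 for 3 mM, 16 to 100 pooled, 11 to 24 for 3 against 1 mM, 191 to 1420 for 3 mM against the lower concentrations, 10 to 83 for NE at 3 mM, 172 to 369 for 10 mM, and 0 to 0 for both remaining 1 mM comparisons. A replicate block gave 1, 250, 95, 38, 713, 0, 61, 0 and 293 in the order above, and so changed no call count by over 1.5 times.

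Sign changes were counted only for named genes that had passed in their comparison, not for those given as not passing. With DMSO as control, 21 such log2 values changed sign, while 1 of them, Car3, passed the test. At 1 mM it was Pmaip1 (0.19). At 3 mM they were Cyp4a1 (-0.52), Bhmt (-0.46), Plg (-0.10), Lgals4 (0.74), Car3 (2.12), Crip1 (0.67), Mmp2 (0.67) and Slc2a13 (0.059). Pooled they were Cyp4a1 (-0.86), Cpn2 (-0.12), Sult1b1 (-0.29), Bhmt2 (-0.64), Cyp4a2 (-0.67), Akr1d1 (-0.75), Itih3 (-0.24), Lgals4 (0.79), Apod (0.23), Crip1 (0.68), Mme (0.067) and Lgals3 (0.077). Under the other settings no named gene that had passed changed sign. At the library totals here 3 counts equal 0.27 to 0.452 CPM, so values under 1 CPM rest on few reads; 3 wells a group from 1 cell lot limit every comparison.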
